A study of Mus musculus with 6 samples.

Results

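The IL-6 family genes were chosen as a list of 10 symbols: the ligands Il6, Il11, Lif and Clcf1, the receptor chains Il6st, Il6ra, Lifr and Osmr, the transcription factor gene Stat3 and its feedback inhibitor gene Socs3. Of these, 9 had a row among the 18197 symbols of the count table, and Clcf1 was not analysed here. All 9 had enough counts to be among the 16543 genes tested. They were chosen by family membership with measured values in view, namely the differences in counts between the 2 genotypes in these same libraries, so the members' levels and fold changes are given as a description, with no p-value.

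RNA-seq was run on cancer-associated fibroblasts, the stromal cells that build and remodel tumour matrix, sorted by flow cytometry from mammary tumours of C57BL/6 mice. The tumours were driven by the polyoma middle T oncogene (PyMT) in both groups and were harvested at 16 to 20 weeks. There were 3 libraries labelled mPGES-1 KO, lacking the prostaglandin E2 (PGE2) synthase mPGES-1 by their label, and 3 labelled WT, and the series title names a signature that depends on PGE2. The labels state neither how the knockout was made, nor whether tumours were pooled, nor which surface markers defined the sort.

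IL-6 family cytokines signal through receptor complexes that share gp130, the protein encoded by Il6st. IL-6 and IL-11 first bind their own receptor chains, while LIF brings gp130 together with the LIF receptor, and oncostatin M uses the chain encoded by Osmr. Janus kinases bound to these chains phosphorylate STAT3, and STAT3 in turn switches on Socs3, whose product blocks signalling at gp130. In tumour stroma, IL-6 and LIF are known as secreted products of inflammatory fibroblasts.

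Total counts were 23013498 to 37249186 per mPGES-1 KO library and 37432510 to 43648450 per WT library, named here by their labels. Ptges, which encodes mPGES-1, stood at 150.3 ± 31.1 CPM in the mPGES-1 KO group and at 26.3 ± 6.49 CPM in the WT group (SD, n = 3 each; CPM are counts brought to a common library size), and so was not lower where the label names a knockout. Gene totals do not separate a deleted exon from the rest, so this level checks neither the deletion nor the labels, and every direction below is drawn from the labels. Fibroblast markers were present in all 6 libraries: 11 of 12 listed markers were in the table, none at 0, with summed levels of 6374 to 17776 CPM in mPGES-1 KO libraries and 9126 to 27106 CPM in WT libraries. Of the 11, 1 rose and 1 fell: Dpp4 was 8.54-fold higher in mPGES-1 KO (edgeR adjusted p = 0.04997, and 1.51e-05 to 0.139 over 13 alternatives) and Thy1 was 9.29-fold lower (edgeR adjusted p = 0.0184, and 7.06e-10 to 0.0926). Markers of other cells were present too. The 16 luminal epithelial markers summed to 42648 to 56338 CPM in mPGES-1 KO libraries and 12774 to 19241 CPM in WT libraries. Of them, 6 passed the test, all higher in mPGES-1 KO. All 16 had a positive log2 fold change, and in 14 the groups did not overlap, as in 27.9% of all genes tested. Csn3 and Wfdc18 made up a large part of each sum. Single luminal markers were higher in mPGES-1 KO by 1.06-fold (Wfdc18) to 9.18-fold (Epcam), with Csn3 at 3.97-fold. The 14 pericyte and smooth muscle markers summed to 252.6 to 525 CPM in mPGES-1 KO libraries and 3738 to 9626 CPM in WT libraries, and 10 passed, all lower. Of 16 leukocyte markers, 1 of 15 tested passed, higher in mPGES-1 KO, with sums of 1660 to 3285 CPM against 592 to 1384 CPM in WT. That marker, Cd14, had 1529, 1273 and 1609 CPM in mPGES-1 KO and 567, 289 and 522 CPM in WT, a large part of each sum. The 15 tested markers had 14 positive log2 fold changes and 1 negative. The 9 endothelial markers in the table summed to 14.7 to 105 CPM and 41.7 to 100 CPM, and 6 basal and myoepithelial markers to 99.6 to 229 CPM and 47.7 to 139 CPM, in mPGES-1 KO and WT libraries. Markers without a count included the endothelial genes Tie1 (mPGES-1 KO replicates 1 and 2) and Cdh5 (WT replicate 3), the B cell gene Cd79a (mPGES-1 KO replicate 1), the neutrophil gene S100a9 (mPGES-1 KO replicate 1 and WT replicates 1 and 3) and the basal gene Oxtr (mPGES-1 KO replicate 3 and WT replicate 1). In bulk RNA, fewer cells of a type and less RNA per cell cannot be told apart.

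**Figure D1:**
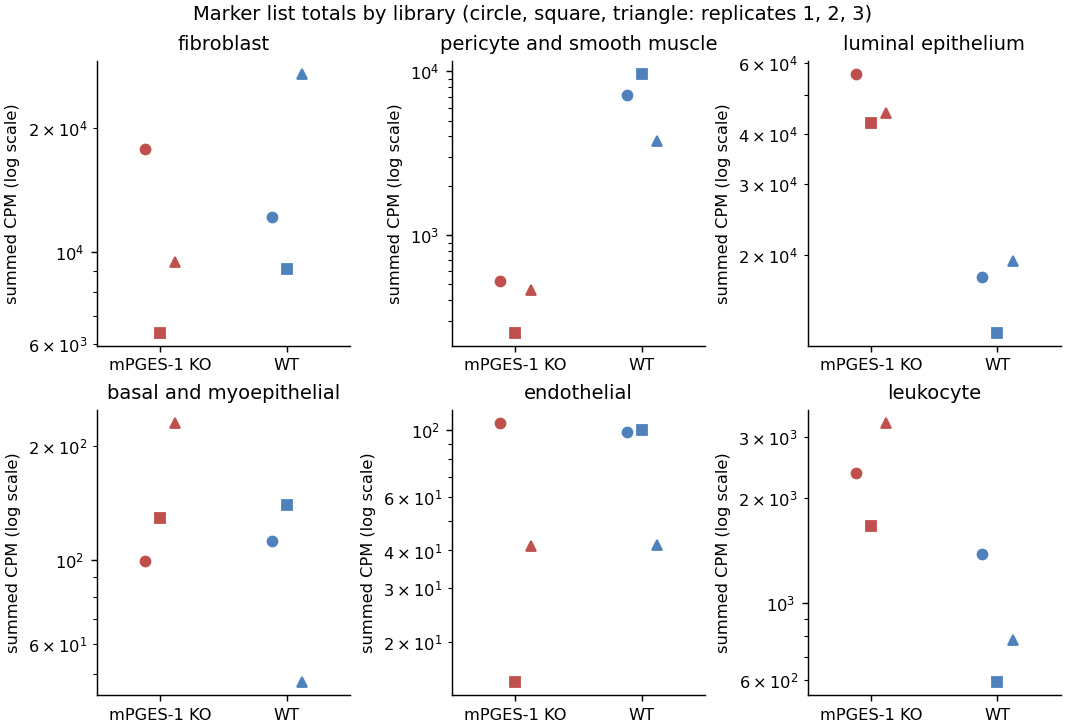
Summed CPM of each marker list (log scale) in the 3 libraries labelled mPGES-1 KO (left of each panel) and the 3 labelled WT (right), 1 point per library. The pericyte sums of 252.6 to 525 CPM in mPGES-1 KO lie below the 3738 to 9626 CPM of WT, and the luminal and leukocyte sums lie above those of WT. A large part of each leukocyte sum is the single gene Cd14, and a large part of each luminal sum is Csn3 and Wfdc18.

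The 250 bases before the RefSeq start are shown for Lif and Socs3, the members with the widest differences between the groups, and for Il6, the ligand that names the family. They are printed 5′ to 3′ on the gene's strand in GRCm38.p6, with capitals marking the letters TGACTCA or TGAGTCA (the AP-1 element) and TTCNNNGAA (the STAT element), each searched on both strands. AP-1 is a family of transcription factors activated by growth and stress signals, and STATs are activated by cytokine receptors.
Lif, chr11:4257318-4257567, plus strand: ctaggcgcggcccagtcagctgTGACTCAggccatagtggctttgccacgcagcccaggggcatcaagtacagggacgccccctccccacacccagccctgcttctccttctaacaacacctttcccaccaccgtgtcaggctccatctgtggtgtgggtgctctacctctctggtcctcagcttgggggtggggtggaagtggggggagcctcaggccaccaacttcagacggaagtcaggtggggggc
Socs3, chr11:117969367-117969616, minus strand: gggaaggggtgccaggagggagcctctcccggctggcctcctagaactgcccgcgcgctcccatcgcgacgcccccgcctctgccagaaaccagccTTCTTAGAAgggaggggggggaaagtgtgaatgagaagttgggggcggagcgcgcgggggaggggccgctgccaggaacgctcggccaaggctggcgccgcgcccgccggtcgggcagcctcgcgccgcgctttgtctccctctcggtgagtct
Il6, chr5:30012864-30013113, plus strand: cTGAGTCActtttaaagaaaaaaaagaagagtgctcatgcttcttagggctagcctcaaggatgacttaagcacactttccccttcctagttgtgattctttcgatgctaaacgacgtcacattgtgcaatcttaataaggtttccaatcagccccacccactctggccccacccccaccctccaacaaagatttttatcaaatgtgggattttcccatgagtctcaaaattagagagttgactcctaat

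The STAT letters of Socs3 began 154 bases before the start, the AP-1 letters of Lif 228 bases before it, and the AP-1 letters of Il6 249 bases before its start. Among all 9 members, the STAT letters were in the window of 1 gene and the AP-1 letters in that of 3 (Il6, Lif and the second start of Il11). Of 32536 RefSeq windows of the same length, 7.04% held the STAT letters and 4.45% the AP-1 letters. These shares are per window, while members are counted by gene, and Il11 and Lifr had more than 1 window each. The full CRE, the cAMP response element TGACGTCA, was in none of the members' windows and in 1.56% of all. Its shorter form TGACG, not capitalised above, was in the windows of 2 members, Il6 and Il6ra, and in 17.9% of all. Both matches read CGTCA on the gene's strand, beginning 135 bases before the start of Il6 and 236 bases before that of Il6ra. These are matches of letters and show no binding. In the GENCODE M21 annotation of the same assembly, 11 bases of the Lif window lie in its first exon, 77 of the Socs3 window lie in the first exon of a transcript annotated without a coding sequence, and none of the Il6 window is exonic. Of the windows not printed, that of Osmr was exonic in all its 250 bases.

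Levels were divided by kilobases of exon so that different genes could be set side by side. The length joins all annotated exons of a gene. Which isoforms were expressed was not determined, so comparisons between genes are rough. Per kilobase, the order of the members differed between the groups. In mPGES-1 KO libraries, Lif stood first at 91.8 ± 43.1 CPM per kb, followed by Socs3 at 69.3 ± 20.8, Il6 at 58.7 ± 40.3 and Stat3 at 51.1 ± 11.5 CPM per kb (SD, n = 3 each). The ranges of these 4 neighbours overlapped in turn. In WT libraries, Socs3 stood first at 283 ± 40.7 CPM per kb, above the range of Il6 at 106.0 ± 84.2, which lay above that of Stat3 at 25.3 ± 10.6 CPM per kb, and Lif stood sixth at 4.59 ± 5.27 CPM per kb. Among 16138 tested genes with a known length, the mean Lif level exceeded 96.1% of genes in mPGES-1 KO and 56.7% in WT, and the mean Socs3 level 94.7% and 98.8%. The receptor chains were lower: Osmr, Il6st, Lifr and Il6ra followed in that order in mPGES-1 KO, from 16.6 ± 4.46 to 1.23 ± 0.210 CPM per kb, without overlap between neighbours. In WT the receptors began with Il6st at 11.3 ± 4.97 CPM per kb, ahead of Osmr at 8.16 ± 2.76 with overlapping ranges, and ended with Il6ra at 0.916 ± 0.264 CPM per kb. Il11 came last in both groups.

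Of the 9 members, 1 passed edgeR's quasi-likelihood test at a Benjamini-Hochberg adjusted p of 0.05 over all genes, and that was Socs3, lower in mPGES-1 KO. Over all genes tested, 456 or 2.76% passed, 1.2% higher and 1.56% lower in mPGES-1 KO. The groups did not overlap in 4 of the 9 members (Lif, Osmr and Stat3 above and Socs3 below WT), as in 27.9% of all genes tested. The median log2 fold change of the members was 0.28 and that of all genes -0.04. The members' median was -0.059 without WT replicate 1 and 0.65 without WT replicate 3. Nothing is read from these counts, since this contrast was in view when the members were chosen. The count of all genes passing ran from 0 without mPGES-1 KO replicate 2 or replicate 3 (2574 and 2975 at an unadjusted p under 0.05) and 1 without WT replicate 2, through 150 without WT replicate 3 and 160 without mPGES-1 KO replicate 1, to 568 without WT replicate 1.

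**Figure D2:**
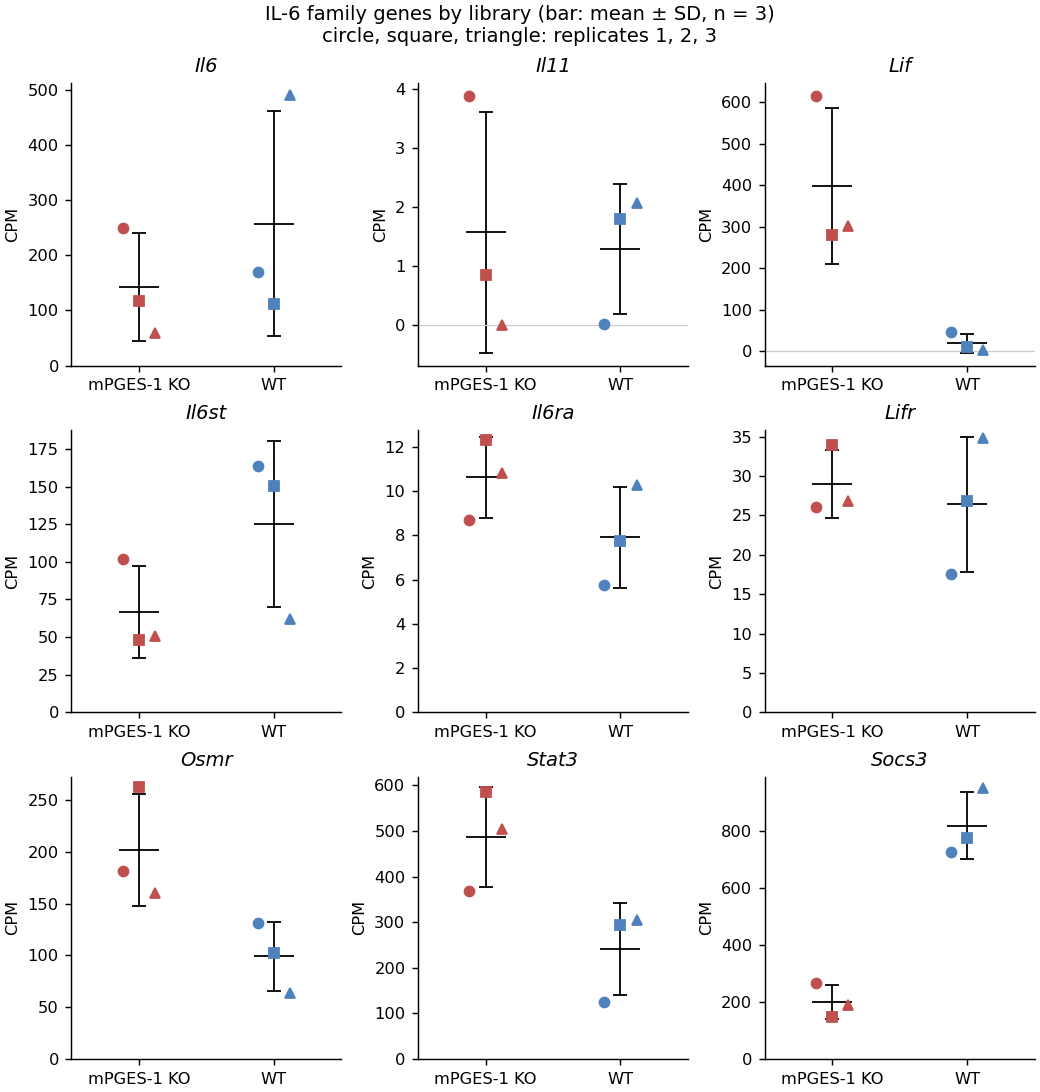
CPM of each of the 9 measured genes (linear axes) in the 3 libraries labelled mPGES-1 KO, left, and the 3 labelled WT, right, with the mean and SD as bars. Lif lies between 280.4 and 616 CPM in mPGES-1 KO and between 3.73 and 46.2 CPM in WT, and Socs3 between 147 and 265.5 CPM against 728.5 to 952 CPM.

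Among the ligands, Lif was higher in mPGES-1 KO in every library and Il6 was not. Lif, which encodes leukaemia inhibitory factor, reached 616, 280.4 and 302 CPM in the mPGES-1 KO libraries (replicates 1 to 3), against 46.2, 9.99 and 3.73 CPM in the WT libraries. Every mPGES-1 KO library lay above every WT library, and the WT libraries themselves spread widely, with replicate 1 the highest. It averaged 399.5 ± 187.7 CPM in mPGES-1 KO and 20.0 ± 22.9 CPM in WT (SD over 3 libraries), which the fit put at a log2 fold change of 4.32 ± 0.93 (SE). That value was 5.88 without WT replicate 1 and 3.83 without WT replicate 3. Lif lies on chromosome 11 from 4257557 to 4272514 on the plus strand in GENCODE M21, next to the related ligand gene Osm, with 16530 bases and no other protein-coding gene between them.

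Il6, the founding ligand of the family, was detected in every library but did not separate the groups. The mPGES-1 KO libraries held 250.8, 117 and 60.0 CPM, and the WT libraries 169, 112 and 491 CPM, in the order of their replicate numbers. The ranges overlapped, and WT replicate 3 alone lay above all mPGES-1 KO libraries. The log2 fold change was -0.85 ± 0.67 (SE), and it was 0.018 without WT replicate 3 and -1.53 without mPGES-1 KO replicate 1. The libraries with the most Il6, WT replicate 3 and mPGES-1 KO replicate 1, also held the largest sums of fibroblast markers, at 27106 and 17776 CPM, and the part of that in the Il6 level was not tested. Its 3 closest genes in pattern were Fam198b, Dpysl3 and AC154176.2, with root mean square differences of 0.287 to 0.306 on a centred log2(CPM + 1) scale over the 6 libraries, among 11347 genes at a mean of at least 5 CPM.

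Il11, a ligand tied to fibrosis, was near the limit of detection. It had 106, 20 and 0 counts in mPGES-1 KO libraries and 1, 71 and 75 counts in WT libraries. Both groups thus held a library at 1 count or none, and no direction can be read. The log2 fold change of 0.28 ± 2.05 (SE) was -1.62 without mPGES-1 KO replicate 1 and -0.25 without WT replicate 1.

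Within a library, the ratio of Lif to Il6 per kilobase does not depend on how the libraries are scaled. It was 1.37, 1.34 and 2.81 in mPGES-1 KO replicates 1 to 3, and 0.152, 0.0499 and 0.00424 in WT replicates 1 to 3. Lif therefore exceeded Il6 per kilobase in all 3 mPGES-1 KO libraries and in none of the WT libraries. Fosl1, Lypd3 and Gm10800 had the patterns closest to that of Lif, with root mean square differences of 0.559, 0.649 and 0.766. Fosl1, which encodes a subunit of AP-1, had 149.9, 140.0 and 88.1 CPM in mPGES-1 KO and 11.4, 3.72 and 2.42 CPM in WT. Lypd3 encodes a surface protein best known from keratinocytes. The summed luminal and leukocyte markers were also higher in mPGES-1 KO, 2.90-fold and 2.65-fold, and their part in the Lif difference was not tested. The single gene Cd14 made up a large part of the leukocyte sum, and Csn3 and Wfdc18 a large part of the luminal sum. Single luminal markers were 1.06-fold to 9.18-fold higher in mPGES-1 KO.

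**Figure D3:**
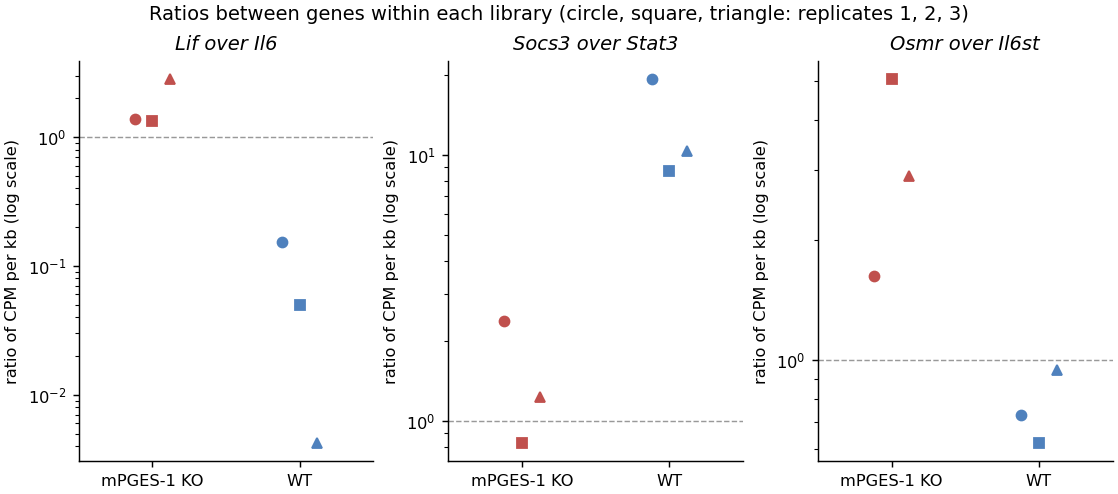
Ratio of CPM per kb of exon between 2 genes in the same library (log scale), for Lif over Il6, Socs3 over Stat3 and Osmr over Il6st, 1 point per library, with mPGES-1 KO left and WT right. The dashed line marks equal levels: Lif over Il6 lies above it in mPGES-1 KO and below it in WT, as does Osmr over Il6st.

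Among the 4 receptor chains of the member list, Osmr alone had groups that did not overlap. This chain, which pairs with gp130 for oncostatin M, stood at 181, 263 and 160.5 CPM in the mPGES-1 KO libraries, and at 131, 102 and 64.1 CPM in the WT libraries. All mPGES-1 KO libraries were above all WT libraries, though mPGES-1 KO replicate 3 and WT replicate 1 were near each other. The log2 fold change was 1.03 ± 0.34 (SE). Etnk1, Cd200 and Hspa9 were closest to it in pattern, with root mean square differences of 0.093 to 0.122.

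Il6st, the gene of the shared signal chain gp130, had 102, 47.7 and 50.9 CPM in mPGES-1 KO libraries, and 164, 150.1 and 62.1 CPM in WT libraries. The groups overlapped through mPGES-1 KO replicate 1 and WT replicate 3, and the log2 fold change was -0.91 ± 0.46 (SE). Fam49a, Lats2 and Phc1 followed the most similar pattern, at 0.208 to 0.213. The ratio of Osmr to Il6st per kilobase was 1.63, 5.05 and 2.89 in mPGES-1 KO libraries and 0.732, 0.622 and 0.946 in WT libraries. By this measure Osmr exceeded Il6st in all 3 mPGES-1 KO libraries and in none of the WT libraries. The side of WT replicate 3 depends on the lengths used, since by CPM Osmr (64.1) stood just above Il6st (62.1) there.

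Lifr, the chain that binds LIF, and Il6ra, the chain that binds IL-6, overlapped between the groups. Lifr had 26.1, 33.9 and 26.8 CPM in mPGES-1 KO libraries and 17.6, 26.9 and 34.8 CPM in WT libraries. For Il6ra the values were 8.71, 12.3 and 10.8 CPM in mPGES-1 KO libraries and 5.74, 7.72 and 10.3 CPM in WT libraries. Their log2 fold changes were 0.13 ± 0.38 and 0.42 ± 0.59 (SE). The ratio of Lifr to Il6ra per kilobase was 2.41, 2.21 and 1.99 in mPGES-1 KO libraries and 2.46, 2.79 and 2.71 in WT libraries. Every mPGES-1 KO library lay below every WT library in this ratio, with means of 2.20 ± 0.210 in mPGES-1 KO and 2.65 ± 0.170 in WT (SD, n = 3 each). The nearest values, 2.41 and 2.46, were close, and Il6ra had only 238 to 382 counts per library. The ratios of Osmr to Lifr, Il6st to Il6ra and Stat3 to Il6st overlapped between the groups. In mPGES-1 KO and WT libraries, Osmr over Lifr ran from 5.33 to 6.89 and 1.64 to 6.6. Il6st over Il6ra ran from 3.01 to 9.12 and 4.69 to 22.2, and Stat3 over Il6st from 4.22 to 14.3 and 0.889 to 5.73. Lifr and Osmr are neighbours on chromosome 15, with 215644 bases and no other protein-coding gene between them. Of the exonic bases of Il6ra, 2.8% overlap the opposite-strand gene Gm42809. The reads carry no strand, so some may be shared, and the share of reads is not known.

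Stat3 and Socs3 lay on opposite sides. Stat3, the transcription factor activated by all of these receptors, had 369, 586 and 505 CPM in mPGES-1 KO libraries, and 125, 294 and 305 CPM in WT libraries. The groups did not overlap, and WT replicate 1 lay well below the other libraries. Its log2 fold change was 1.01 ± 0.39 (SE), and 0.756% of its exonic bases overlap Stat5a on the opposite strand.

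Socs3, the STAT3-induced feedback inhibitor, had 265.5, 147 and 188 CPM in mPGES-1 KO libraries, and 728.5, 776.5 and 952 CPM in WT libraries. The lowest WT library stood well above the highest mPGES-1 KO library, and neither group spread widely. Its mean of 200.3 ± 60.0 CPM in mPGES-1 KO was 4.09-fold lower than the 819 ± 117.7 CPM in WT (SD over 3 libraries), and the log2 fold change was -2.03 ± 0.31 (SE). Socs3 no longer passed without mPGES-1 KO replicate 2 (log2 fold change -1.82), mPGES-1 KO replicate 3 (-1.99), WT replicate 2 (-2.01) or WT replicate 3 (-1.91). The gene lies on chromosome 11 from 117966079 to 117970047 on the minus strand and shares no exonic base with another annotated gene. Tshz2, C1qtnf2 and Adprh were closest to Socs3 in pattern, with root mean square differences of 0.0962 to 0.117.

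Per kilobase, Socs3 stood at 2.37, 0.829 and 1.23 times the level of Stat3 in mPGES-1 KO libraries, and at 19.2, 8.71 and 10.3 times in WT libraries. The highest ratio in mPGES-1 KO was below the lowest in WT. Socs3 over Lif was 0.649, 0.791 and 0.937 in mPGES-1 KO libraries and 23.7, 117 and 384 in WT libraries. The summed pericyte and smooth muscle markers were also lower in mPGES-1 KO, by 16.6-fold, and their part in the Socs3 difference was not tested.

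**Figure D4:**
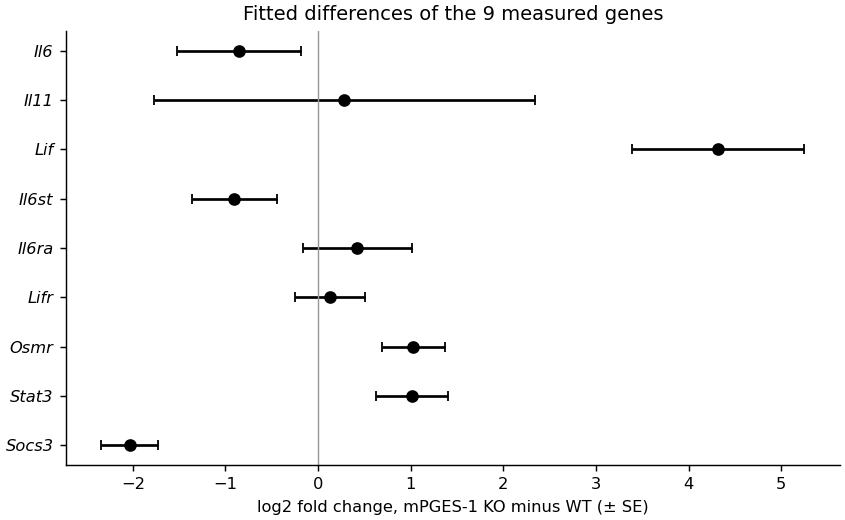
Log2 fold change, mPGES-1 KO minus WT, of the 9 measured genes, with bars of 1 SE from the fit across all genes. Lif, at 4.32, lies farthest to the right and Socs3, at -2.03, farthest to the left, while the bars of Il11, Il6ra and Lifr cross 0.

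The rest of the pathway was described with 5 lists of 63 further genes, of which 62 were in the table and 61 were tested. Of these, 4 rose and 1 fell in mPGES-1 KO, and 56 did not pass, with a median log2 fold change of 0.07. The 5 calls are 5 of 61 genes, beside the 2.76% of all genes that passed. The count was 6 without WT replicate 1 and 0 without mPGES-1 KO replicate 1, 2 or 3 or WT replicate 2 or 3, where 11 to 15 genes had an unadjusted p under 0.05, and DESeq2 called 11 and limma-voom 10.

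Among 14 other SOCS, PIAS and phosphatase genes, the negative regulators of the pathway, 2 rose and none fell in edgeR's test. DESeq2 called 3 higher (with Socs6) and limma-voom 4 higher (with Socs6 and Ptpn6), and neither called any lower. With scaling by library size only, Ptpn2 alone passed, and Socs5 had an edgeR adjusted p of 0.052. Ptpn2, a phosphatase that removes phosphate from Janus kinases and STATs, had 325, 397.5 and 376 CPM in mPGES-1 KO and 135, 60.2 and 84.7 CPM in WT (log2 fold change 1.97 ± 0.34, edgeR adjusted p = 0.0310, higher in 3 of 3 libraries). Socs5, which is best known as an inhibitor of IL-4 and EGF receptor signalling, had 60.6, 49.7 and 67.3 CPM in mPGES-1 KO and 22.9, 21.8 and 18.5 CPM in WT (1.49 ± 0.30, edgeR adjusted p = 0.0462). Both genes thus stood on the other side from Socs3. Socs2, an inhibitor of growth hormone signalling, had 135.5 ± 61.5 and 57.4 ± 38.0 CPM and Ptpn1 103.8 ± 54.9 and 157.8 ± 63.2 CPM in mPGES-1 KO and WT, and neither passed (edgeR adjusted p = 0.279 and 0.533). The median of the list was 0.77.

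Among 23 genes described as STAT3-responsive, 2 rose, 1 fell and 20 did not pass edgeR's test. The balance of directions depended on the tool: DESeq2 called 2 higher (Vegfa and Lcn2) and 4 lower (Timp1, Saa3, Junb and Cebpd), and limma-voom called 3 higher (with Muc1) and 3 lower (Timp1, Saa3 and Junb). Vegfa, an angiogenic growth factor, had 129.6, 118 and 289.9 CPM in mPGES-1 KO and 32.1, 43.3 and 44.1 CPM in WT (log2 fold change 2.17 ± 0.40, edgeR adjusted p = 0.0382). Lcn2, an iron-binding acute phase protein, rose by 2.37 ± 0.42 on the same scale (adjusted p = 0.0329), with 7842 to 12776 CPM in mPGES-1 KO and 1409 to 3021 CPM in WT. Timp1, a protease inhibitor, had 85.5, 55.8 and 124 CPM in mPGES-1 KO and 291, 344.5 and 693 CPM in WT (-2.32 ± 0.45, adjusted p = 0.0423). Saa3, an acute phase gene like Lcn2, had 0.988, 13.2 and 3.40 CPM in mPGES-1 KO and 79.1, 174.7 and 103.8 CPM in WT, and was named after its values were seen. All its mPGES-1 KO libraries lay below all WT libraries, with a log2 fold change of -4.35 ± 0.91, the largest in size of the list, and an edgeR adjusted p of 0.0517. Over 13 alternatives its adjusted p ran from 8.39e-07 to 0.173, and it passed in 3 of them. Fos, the immediate early gene with the highest level of those not passing, had 6006 ± 1349 CPM in mPGES-1 KO and 6378 ± 853 CPM in WT (log2 fold change -0.09 ± 0.30). The list held 12 positive and 11 negative log2 fold changes with a median of 0.09. Each of the 5 calls kept its direction in all 13 alternatives, and edgeR adjusted p for each exceeded 0.05 without any of mPGES-1 KO replicates 1 to 3 or WT replicates 2 and 3, at 0.0632 to 0.171. Without WT replicate 1, edgeR adjusted p was 0.0629 for Vegfa and 0.0540 for Socs5. Over all 13 alternatives adjusted p ran from 1.98e-05 to 0.136 for Vegfa and from 0.000305 to 0.171 for Socs5. Single luminal markers were 1.06-fold to 9.18-fold higher in mPGES-1 KO. The luminal marker sum was 2.90-fold higher and the pericyte sum 16.6-fold lower in mPGES-1 KO. Their part in these 5 differences was not tested.

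**Figure D5:**
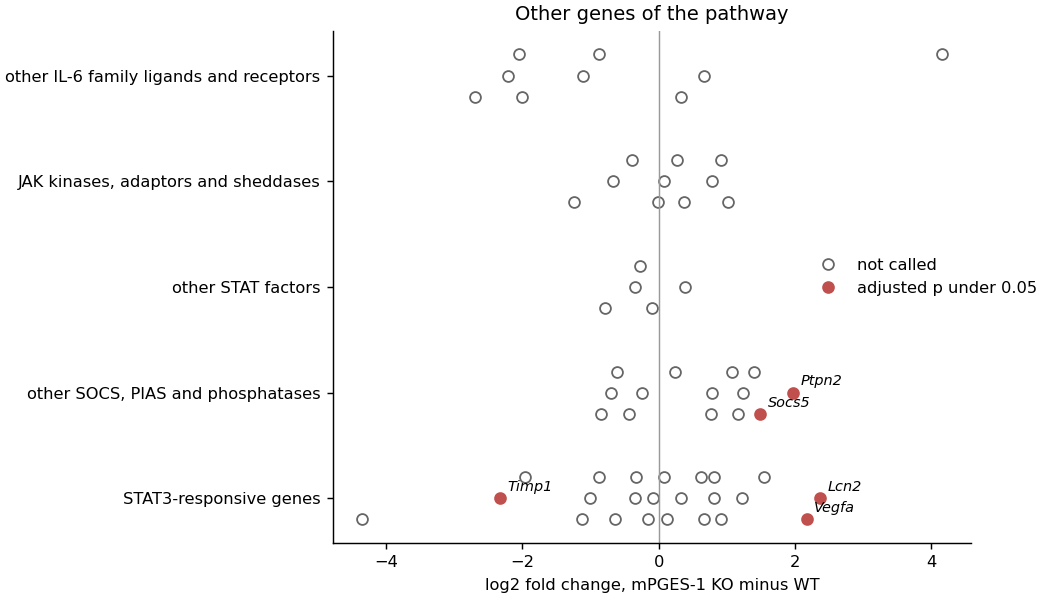
Log2 fold change, mPGES-1 KO minus WT, of the 61 tested genes of 5 pathway lists, 1 point per gene, spread vertically within a list for legibility. Filled points passed an adjusted p of 0.05: Ptpn2, Socs5, Vegfa and Lcn2 to the right of 0 and Timp1 to the left.

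Of 9 other family ligands and receptors tested, none passed edgeR's test, 2 had an unadjusted p under 0.05, DESeq2 called 2, of which Il11ra1 is described here, and limma-voom called 0. The median log2 fold change of this list was -1.11. Il11ra1, the receptor chain for IL-11, had 103, 48.5 and 53.1 CPM in mPGES-1 KO and 151, 108 and 685.6 CPM in WT (log2 fold change -2.21 ± 0.72, edgeR adjusted p = 0.146). Near-identical copies of this gene exist in the mouse genome, and counting could split reads among them, which makes its level uncertain. Ctf1, the gene of cardiotrophin-1, had 16.6 ± 3.48 and 13.2 ± 3.16 CPM, and Il27ra 4.64 ± 3.24 and 10.01 ± 1.41 CPM, in mPGES-1 KO and WT.

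Osm, the gene of oncostatin M and a product of myeloid cells, was named after its values were seen, as the neighbour of Lif. It had 0.402, 0.0419 and 11.0 CPM in mPGES-1 KO and 19.1, 1.81 and 0.165 CPM in WT. The 2 libraries with most Osm, WT replicate 1 and mPGES-1 KO replicate 3, were those with the largest sum of leukocyte markers in their own group, at 1384 and 3285 CPM. Across groups this order did not hold. The sums of mPGES-1 KO replicates 1 and 2, 2362 and 1660 CPM, exceeded that of WT replicate 1, with less Osm. Osm did not follow Lif across the libraries.

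Janus kinases, adaptors, sheddases and the other STATs showed no change that passed edgeR's test. Of 10 kinases, adaptors and sheddases, none passed, 1 had an unadjusted p under 0.05, and neither DESeq2 nor limma-voom called any, with a median log2 fold change of 0.17. Jak1, the main kinase bound to gp130, had 208.9 ± 1.70 CPM in mPGES-1 KO and 161 ± 16.5 CPM in WT (log2 fold change 0.37 ± 0.22, edgeR adjusted p = 0.431). Grb2, Adam10 and Ptpn11, the next highest by level, had log2 fold changes of -0.02 ± 0.33, 0.92 ± 0.50 and -0.39 ± 0.39 (SE). Of 5 other STAT genes tested, none passed, none had an unadjusted p under 0.05 and none was called by DESeq2 or limma-voom, with a median of -0.28. Stat6, Stat2, Stat5b and Stat5a had log2 fold changes of -0.34 ± 0.35, -0.79 ± 0.47, 0.38 ± 0.38 and -0.10 ± 0.49 (SE). The labels do not say that the libraries of a group came from separate mice, and the spread behind each p-value may therefore be technical.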

How the data were processed

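RNA of the sorted cells was turned into cDNA by template switching, amplified over 16 PCR cycles, sheared and read once over 75 cycles, per the labels' protocols. The reads are unstranded and carry no molecular identifiers. The deposited table holds unnormalized read counts, 1 row per gene symbol. STAR, FastQC 0.11.5 and the build mm10 are named in the submitters' processing notes, while no source used here gives the counter, its annotation or any filter.

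Counts were fitted in R 4.3.3 with edgeR 4.0.16 (filterByExpr, TMM, robust quasi-likelihood test, two-sided, genotype only, all 6 libraries), with Benjamini-Hochberg adjustment over 16543 genes and calls at 0.05. The SE of a log2 fold change is its size over the square root of F. CPM use TMM-scaled totals, in which 3 counts stand for 0.0683 to 0.126 CPM. Lengths and positions come from GENCODE M21 (GRCm38, the assembly mm10 names), which held 1 gene for 17664 symbols. Promoters come from RefSeq on GRCm38.p6.

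The members, gene lists and tests were chosen with earlier results of these data known. The genes named are the members, Ptges, and per pathway list every called gene, then the highest of the others up to 4. Osm, Saa3, Dpp4, Thy1 and the genes called by other tools alone were added after their values were seen. Some listed genes are not reported here. For Lif, Il6, Socs3, Il6st and Osmr, 3 genes with the most similar pattern are named. Alternatives were 2 scalings, 2 filters, DESeq2 1.42.0, limma-voom (limma 3.58.1), a replicate block and each library left out. No pair of libraries held identical values.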

Additional observations from a re-analysis of the deposited data

How the results depend on the processing

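With a common biological coefficient of variation of 0.818, differences had to be wide to pass. All genes passing numbered 456, and 445 to 585 under the other scalings and filters, but 2047 in DESeq2, 1944 in limma-voom and 0 to 568 without single libraries. Pathway genes passing numbered 5, and 11 in DESeq2, 10 in limma-voom and 0 to 6 without single libraries. Members passing numbered 1, and 2 at a minimum of 1 CPM in at least 3 libraries and in DESeq2 (Lif and Socs3), 3 in limma-voom (with Osmr), and 0 to 2 without single libraries. Genes whose groups did not overlap numbered 4614, and 5604 to 7834 without single libraries. With fewer libraries ranges overlap less often, and 17322 to 17816 genes were then tested, so nothing is read from this rise. With the replicate number as a block, 0 genes passed in the whole table (2716 at an unadjusted p under 0.05), 0 in the pathway lists (15) and 0 members (4), and Ptges had a log2 fold change of 2.53. Libraries with the same number did not deviate together (r from -0.085 to 0.031), nor did each correlate best with its own number. No pairing by number was seen, though with 3 libraries per group a weak pairing could be missed.

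The Ptges log2 fold change of 2.51 ran from 2.34 to 2.71 without single libraries. Directions turned for Il6 without WT replicate 3 (0.018, in a range of -1.53 to 0.018 without single libraries), for Lifr without WT replicate 1 (-0.059, in a range of -0.059 to 0.37), and for Il11 in limma-voom (-1.50), with the replicate block (-1.01), without mPGES-1 KO replicate 1 (-1.62) and without WT replicate 1 (-0.25, in a range of -1.62 to 0.88). The members' median of 0.28 ran from -0.059 to 0.65 without single libraries. The causes were not tested. Lif stayed between 3.83 and 5.88, Osmr between 0.79 and 1.30, Stat3 between 0.73 and 1.23 and Socs3 between -2.28 and -1.82 over 13 alternatives. The scalings moved the median of all genes by under 0.1, and depth limits Il11 most, at 0 to 106 counts. No limits from counting error alone are given, and each SD is taken over the 3 libraries of a group.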
